A study of Danio rerio with 24 samples.

Results

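The marks compared here are H3K4me3 and H3K27me3 in the intestine of zebrafish larvae at 5 days post fertilization (dpf). A region of a mark is a stretch of a numbered chromosome where peaks of both libraries of that mark overlapped by 1 base or more, with the merged peaks as its outline. This gave 15630 H3K4me3 regions and 4393 H3K27me3 regions, 20023 of the 64988 regions that the same rule gave over 5, 7 and 9 dpf. All groups were AB strain fish, wild type apart from the transgene tg(cldn15la:GFP), which marks intestinal epithelium with GFP through the cldn15la promoter. The dissected intestine was used whole, in pools of 25 for each of the 2 H3K4me3 and 2 H3K27me3 libraries. A further 5 intestines were set aside for input, which was 1 library sequenced without an antibody. Whether the 5 were set aside per pool or once for the age was not clear. Nothing in the labels says that pools came from separate clutches, so the spread between libraries may be technical. Signal from a pool cannot tell a cell that carries both marks from neighbouring cells that carry 1 each.

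H3K4me3 is a methylation of histone H3 that COMPASS-type methyltransferases place at the start sites of active and poised genes, usually over the first nucleosomes. H3K27me3 is placed by Polycomb repressive complex 2, which spreads it over silent genes, and in vertebrates it is best known over genes of developmental regulators such as the Hox clusters. Promoters that carry both marks are called bivalent and were first described in embryonic stem cells, where many belong to developmental genes kept silent. In the gut epithelium Polycomb is known for keeping genes of other lineages off. Regions are named here by position on GRCz10, counted from 1. Gene annotation of that build was not used here, so no region is assigned to a gene.

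The label of the tissue was checked in the RNA libraries of the same age, which came from other pools. All 8 intestinal epithelium markers were present, among them fabp2, the fatty acid binding protein of enterocytes, and cldn15la, with a summed level of 58027 to 103799 normalized counts over the 3 libraries. Smooth muscle markers (4 of 4 found) summed to 7449 to 13180, exocrine pancreas markers (3 of 4) to 1060 to 4001 and liver markers (4 of 4) to 471 to 2478. Markers of skeletal muscle (4 of 4) summed to 678 to 916, of enteric neurons (4 of 4) to 423 to 484, of leukocytes (4 of 4) to 144 to 169 and of erythrocytes (2 of 4) to 83.9 to 140. No marker that was found had a mean level under 10. RNA of other cell types was thus present in the dissected tissue, and their part in the peaks was not tested.

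H3K4me3 gave more peaks than H3K27me3, and more of them recurred. The H3K4me3 libraries held 16555 and 16686 peaks on the 25 numbered chromosomes, the H3K27me3 libraries 6092 and 5638, and the input library 661. Of the H3K4me3 peaks, 96.5% in library 1 and 93.7% in library 2 overlapped a peak of the other library. Of the H3K27me3 peaks, 76.7% and 80.6% did. Peaks seen in a single library were short in both marks, with medians of 192.5 and 322 bases for H3K4me3 and 429 and 477 bases for H3K27me3. The regions leave these unshared peaks out, a larger part of them for H3K27me3, and still hold some short ones, down to 187 bases for H3K4me3 and 195 bases for H3K27me3. Over the regions, the rank correlation of fold between the 2 libraries was 0.94 for the 15630 H3K4me3 regions and 0.79 for the 4393 H3K27me3 regions, given as a description across regions of the same library pair. Sequencing depth of these libraries is unknown here, so the counts of peaks also carry differences in depth.

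The marks differed in their widest stretches more than in their typical width. An H3K4me3 region had a median width of 1015 bases (quartiles 720 and 1434) and an H3K27me3 region one of 1607 bases (988 and 2807). The widest H3K4me3 region measured 9768 bases and the widest H3K27me3 region 69849 bases. Widths of 5000 bases or more were found in 31 H3K4me3 regions (0.198%) and in 530 H3K27me3 regions (12.1%), and widths of 10000 bases or more in 0 and in 203 (4.62%). Wide regions held 1.04% of the H3K4me3 bases and 45.6% of the H3K27me3 bases. Together the regions covered 18.2 Mb for H3K4me3 and 11.97 Mb for H3K27me3.

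The difference in the tail was present in each library. Peaks of 5000 bases or more numbered 15 and 28 in the H3K4me3 libraries, 460 and 492 in the H3K27me3 libraries and 0 in the input. They made up 0.0906% and 0.168% of H3K4me3 peaks and 7.55% and 8.73% of H3K27me3 peaks. With all peaks of the numbered chromosomes, median peak width did not separate the marks. It was 809 and 936 bases in the H3K4me3 libraries and 932 and 1041.5 bases in the H3K27me3 libraries, so H3K4me3 library 2 lay slightly above H3K27me3 library 1. The mean difference was log2 -0.18 (exact permutation test of the 2 libraries against 2, two-sided p = 0.667). Such a test cannot give less than 0.333. The medians of the marks no longer overlapped with peaks up to 1000 bases apart joined (log2 -0.24) or with -log10 q of 10 or more (log2 -2.80). They were also apart without input peaks and with scaffolds (log2 -0.19 in each), but not with chromosome 4 left out (log2 -0.16). Medians over regions depended on how their outline was drawn, with log2 -0.66 for merged outlines and -0.27 for the bases shared by both libraries. With the peaks of H3K27me3 library 1 alone in place of regions the sign turned to log2 0.12, and with those of library 2 alone it was -0.04.

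**Figure D1:**
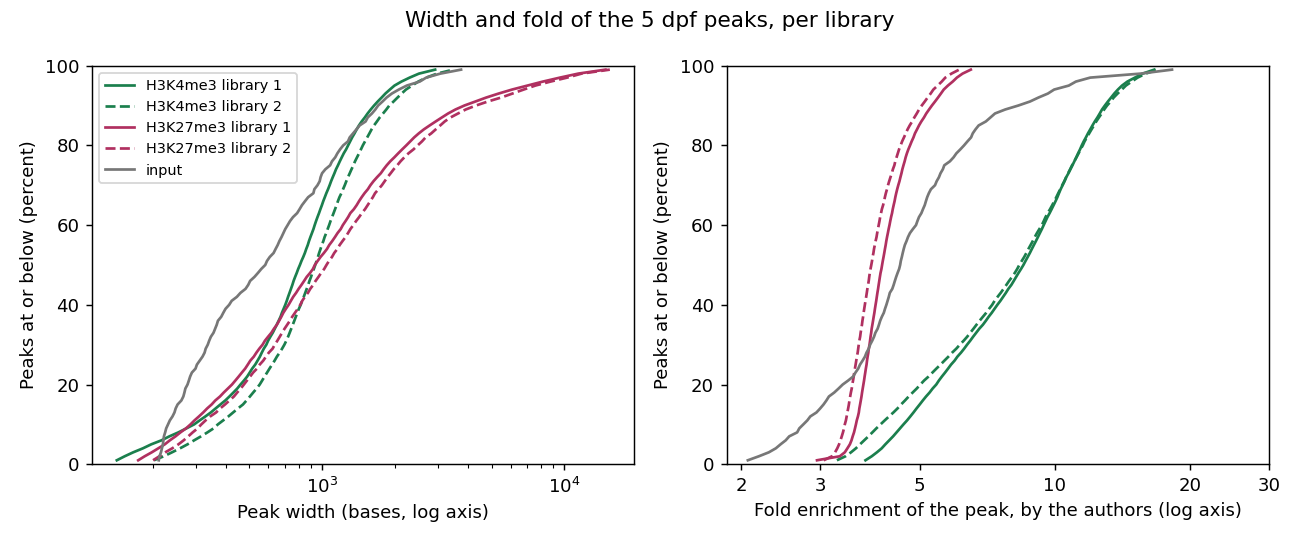
Cumulative percent of peaks against peak width in bases (left, log axis) and against fold enrichment by the authors (right, log axis) for each 5 dpf library, from percentile 1 to percentile 99; the line styles mark library 1 and library 2. The width curves of the marks run close together up to their medians and part at the wide end, where H3K27me3 extends past 5000 bases. Up to the medians, H3K4me3 library 1 stays narrower than H3K27me3 library 2, and H3K4me3 library 2 stays wider than H3K27me3 library 1. The other pairs cross there. The H3K4me3 fold curves lie to the right of those of H3K27me3 and, except at the top end, of the input (at percentile 99, 16.7 and 16.9 for H3K4me3 and 18.2 for the input).

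H3K4me3 peaks stood higher over their local background. The median fold enrichment, as the authors gave it per peak, was 8.52 and 8.34 in the H3K4me3 libraries, 4.12 and 3.90 in the H3K27me3 libraries and 4.52 in the input library. The libraries of the 2 marks did not overlap, and the difference of log2 1.07 had the smallest p the design allows (exact permutation test, p = 0.333). Over regions, with the highest peak of each library averaged, the median was 8.74 (quartiles 6.15 and 11.1) for H3K4me3 and 4.17 (3.84 and 4.66) for H3K27me3. Of the H3K4me3 regions 90.6% lay above the upper quartile of H3K27me3, and of the H3K27me3 regions 1.93% lay above the lower quartile of H3K4me3. A broad mark is spread over more bases than a sharp one, and the lists were called separately, so these folds describe each list and are no measure of how many histones carry a mark.

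Fold and width went together within each mark, more so for H3K27me3. The rank correlation across regions was 0.35 for H3K4me3 and 0.54 for H3K27me3. H3K27me3 regions of 500 to 1000 bases had a median fold of 3.97 in library 1 and 3.76 in library 2, and those of 10000 bases or more had 5.85 and 5.56. For H3K4me3, regions under 500 bases had 5.40 and 5.15, those of 1000 to 2000 bases had 9.79 and 9.73, and the 31 of 5000 bases or more had 8.70 and 8.20. The median fold was highest at 1000 to 2000 bases for H3K4me3 and in the widest class for H3K27me3.

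Each deposited peak is a broad outline that can hold narrower stretches of stronger enrichment. In libraries 1 and 2, 7.58% and 6.21% of H3K4me3 peaks and 37.7% and 37.6% of H3K27me3 peaks held no such stretch. In H3K4me3 regions these stretches filled 79.3% of the outline in library 1 and 83.9% in library 2. In H3K27me3 regions they filled 60.0% and 60.8%. Regions with no such stretch in either library numbered 250 of 15630 for H3K4me3 (1.60%) and 654 of 4393 for H3K27me3 (14.9%). H3K4me3 was accordingly the more compact signal, and H3K27me3 more often formed a shallow outline.

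Both marks were found on all 25 numbered chromosomes, with densities that differed most on chromosomes 4 and 22, which are named here because of their values. Density per Mb was taken over the span to the last peak of any 5 dpf library. H3K4me3 ranged from 9.44 regions per Mb on chromosome 18 to 16.8 on chromosome 22. H3K27me3 ranged from 1.46 regions per Mb on chromosome 4 to 4.17 on chromosome 13, and input peaks from 0.164 on chromosome 19 to 0.940 on chromosome 4. There were 2.73 H3K4me3 regions for each H3K27me3 region on chromosome 13 and 7.57 on chromosome 22, with a median of 3.37 over chromosomes. Across the 25 chromosomes, which share the libraries, the rank correlation of the 2 densities was 0.42.

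Chromosome 4, whose long arm is known for heterochromatin and repeats, held 5.12% and 5.33% of the peaks in the H3K4me3 libraries and 2.72% and 2.64% in the H3K27me3 libraries. Chromosome 22 held 4.22% and 4.15% of H3K4me3 peaks and 2.2% and 1.92% of H3K27me3 peaks. On both chromosomes the libraries of the marks did not overlap, which is given as a description, with no test, since the chromosomes were picked for this difference. By density, chromosome 4 had 10.3 H3K4me3 and 1.46 H3K27me3 regions per Mb and chromosome 22 had 16.8 and 2.22. The medians over chromosomes were 11.6 and 3.46. H3K27me3 was thus below its median on both, and H3K4me3 was above its median only on chromosome 22. Beyond 38.3 Mb, the middle of the span of chromosome 4, lay 291 of its 787 H3K4me3 regions (36.98%), 6 of its 112 H3K27me3 regions (5.36%) and 35 of its 72 input peaks (48.6%). H3K4me3 regions were also narrowest on chromosome 4, with a median of 755 bases against 1025.5 for the median chromosome. How well reads can be placed in repeats was not tested.

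**Figure D2:**
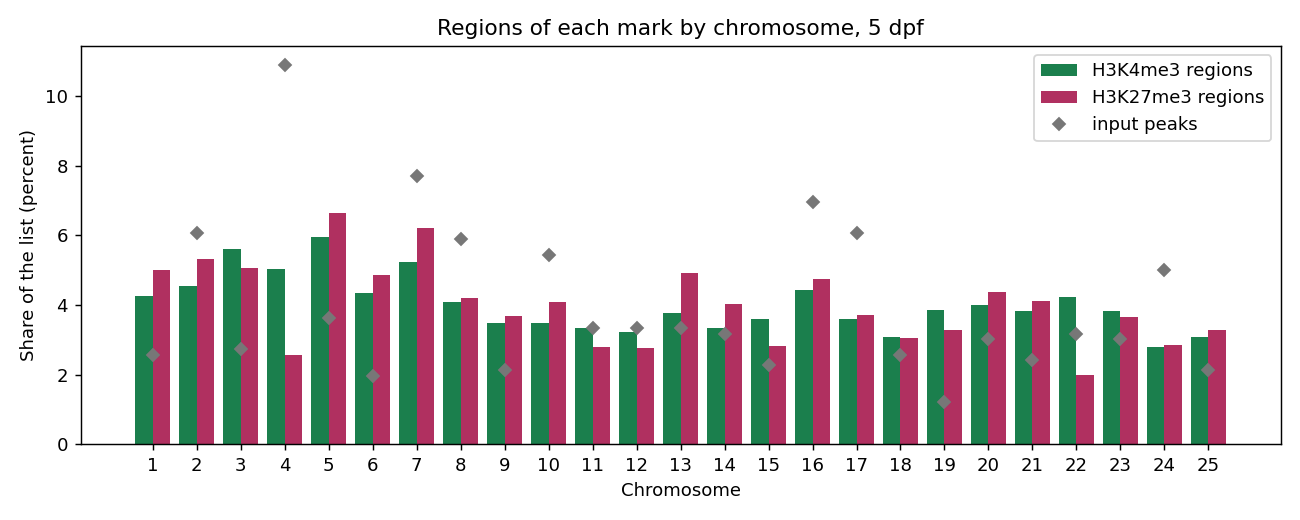
Percent of the 15630 H3K4me3 regions, of the 4393 H3K27me3 regions (bars) and of the 661 input peaks (diamonds) on each numbered chromosome at 5 dpf. H3K27me3 bars are lower than H3K4me3 bars on chromosomes 4 and 22, and the input has its highest share on chromosome 4.

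A minority of regions of either mark lay on the other mark. Of the 15630 H3K4me3 regions 1367 overlapped an H3K27me3 region (8.75%), and of the 4393 H3K27me3 regions 1313 overlapped an H3K4me3 region (29.9%). For comparison, 1.21% of the 661 input peaks overlapped an H3K4me3 region and 4.08% an H3K27me3 region. Per library, 8.98% and 9.59% of H3K4me3 peaks and 24.7% and 25.5% of H3K27me3 peaks lay on a region of the other mark. The difference was -15.8 percentage points. It is given with no test, because the same overlaps are divided by unequal numbers of regions, which sets its direction. The counts depended on the peak threshold: with peaks of -log10 q of 10 or more, 0.228% of H3K4me3 and 7.14% of 350 H3K27me3 regions overlapped the other mark.

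The bases under both marks came to 1382 kb. This was 7.60% of the bases of H3K4me3 and 11.5% of the bases of H3K27me3. H3K27me3 regions covered 0.894% of the span of the numbered chromosomes and H3K4me3 regions 1.36%, so the share of H3K4me3 bases under H3K27me3 was 8.51 times the share of the span. Set against each other library by library, 9.62% to 10.7% of H3K4me3 peaks met an H3K27me3 peak and 25.97% to 29.5% of H3K27me3 peaks met an H3K4me3 peak, over the 4 pairings.

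Where the marks met, H3K4me3 mostly sat within a wider H3K27me3 stretch. Of 1375 overlapping pairs, 791 (57.5%) had the H3K4me3 region wholly inside the H3K27me3 region. In 478 (34.8%) each mark extended past the other on 1 side, and in 106 (7.71%) H3K27me3 lay wholly inside H3K4me3. H3K27me3 regions were the wider ones over all, with a median of 1607 bases against 1015. That alone favours H3K4me3 as the enclosed mark, and the split was not compared with what the widths would give. The median overlap was 809 bases, and only 3 pairs overlapped by under 100 bases. In the enclosed pairs the H3K4me3 region had a median width of 857 bases inside an H3K27me3 region of 2604 bases. It lay a median of 403 bases from the nearer end and 1150 bases from the farther end, and 16.6% of the H3K4me3 midpoints fell in the outer quartiles of the H3K27me3 length. These pairs were picked because H3K4me3 lay inside, so H3K27me3 on both sides follows from that choice. Enclosure also keeps the H3K4me3 midpoints away from the ends.

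Within the H3K27me3 regions that overlapped H3K4me3, the stronger H3K27me3 stretches were also found beneath H3K4me3. Under H3K4me3 they filled 68.6% of the H3K27me3 outline in library 1 and 67.3% in library 2, against 61.5% and 64.4% in the rest of the same 1313 regions. In the 178 of these regions that were 5000 bases or wider the shares were 82.6% and 81.6% under H3K4me3, against 71.8% and 75.1% elsewhere. All these regions were picked because H3K27me3 was called over H3K4me3, so places where it was not called cannot enter. The rest of a region also holds the ends of its outline, and position within the outline was not matched. Whether H3K27me3 changes beneath H3K4me3 was therefore not tested.

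H3K4me3 fold was lower on regions where H3K27me3 was also called. The median H3K4me3 fold was 5.38 in library 1 and 5.04 in library 2 over the 1367 regions with both marks, against 9.08 and 8.99 over the 14263 regions without H3K27me3. The mean difference was log2 -0.80 (SD 0.06 over 2 libraries), lower in 2 of 2 libraries. The exact sign-flip test over 2 libraries cannot give a p below 0.5. With peaks of -log10 q of 10 or more the difference was log2 -0.40, but it then rested on the 0.228% of 11856 H3K4me3 regions that overlapped H3K27me3. Width was alike in the medians, 960 bases with both marks against 1019 bases with H3K4me3 alone, while the upper quartiles were 1491.5 and 1431 bases. H3K27me3 fold hardly differed between the classes: its medians were 4.37 and 4.04 on regions with H3K4me3, against 4.27 and 4.03 on regions without. It had little room to differ, with quartiles of 3.84 and 4.66 over all H3K27me3 regions. Median -log10 q was 4.97 and 5.04 in the H3K27me3 libraries, not far above their lowest values of 3.01 and 3.03. In the H3K4me3 libraries it was 20.1 and 30.6. H3K27me3 regions with H3K4me3 were somewhat wider, with a median of 1766 bases against 1539 bases.

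The share of H3K4me3 regions that carried H3K27me3 went down steadily with H3K4me3 fold. By the fold of library 1 it was 25.5%, 11.9%, 4.16%, 1.76% and 0.448% in the quintiles from lowest to highest, each of 3126 regions. By the fold of library 2 it was 25.9%, 11.3%, 4.64%, 1.28% and 0.544%. The overall share was 8.75%, so the lowest 2 quintiles lay above it and the others below in both libraries. Within the 1375 pairs the rank correlation of the folds of the 2 marks was -0.14 in library 1 and -0.15 in library 2, a weak relation given as a description only.

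**Figure D3:**
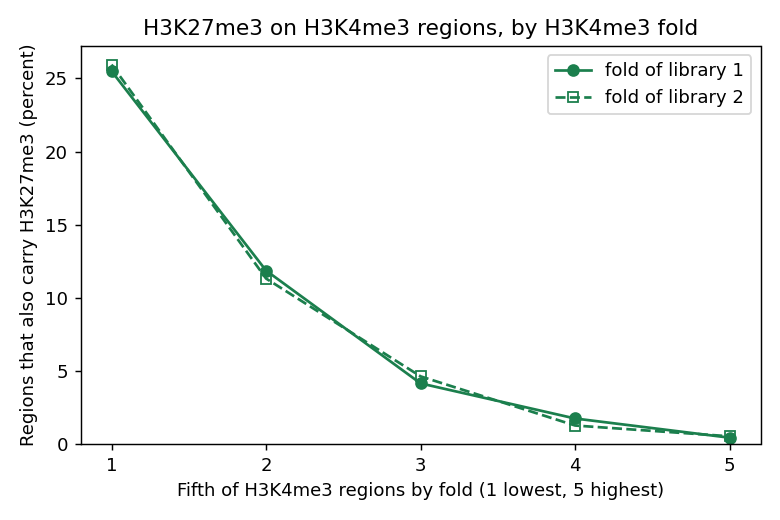
Percent of H3K4me3 regions that overlap an H3K27me3 region, in quintiles of H3K4me3 fold from lowest (1) to highest (5), with the fold taken from library 1 (circles) or library 2 (squares). Both libraries go from 25.5% and 25.9% in the lowest quintile to 0.448% and 0.544% in the highest.

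Distance to the other mark was unequal between the marks. The nearest H3K27me3 region lay a median of 109 kb from an H3K4me3 region (quartiles 33.7 and 266 kb), and the nearest H3K4me3 region a median of 12.4 kb from an H3K27me3 region (0 and 47.6 kb), counting overlaps as 0. Per library the medians were 108.4 and 107.9 kb for H3K4me3 peaks and 14.8 and 13.9 kb for H3K27me3 peaks, which did not overlap. No test is given, because a mark with fewer regions tends to lie farther from a given place on the genome, and there were 15630 H3K4me3 and 4393 H3K27me3 regions to be near to. Input peaks lay a median of 54.4 kb from H3K4me3 and 141 kb from H3K27me3. Among the regions that did not overlap, the medians were 127 kb for H3K4me3 and 28.1 kb for H3K27me3. The farthest H3K4me3 region lay 8.49 Mb from H3K27me3, on chromosome 4.

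Regions of a mark were also spaced differently among themselves. The nearest H3K4me3 neighbour of an H3K4me3 region lay a median of 16.1 kb away (quartiles 5.81 and 39.8 kb). The nearest H3K27me3 neighbour of an H3K27me3 region lay 48.5 kb away (quartiles 3.59 and 176 kb). The lower quartile was thus smaller for H3K27me3 although it had fewer regions, so that 25% of them had a neighbour within 3.59 kb. Regions follow the called peaks, so this spacing, and the ranking by width, depend on where short gaps break a stretch. Joining peaks up to 1000 bases apart left 4201 H3K27me3 regions in place of 4393, and 15459 H3K4me3 regions in place of 15630.

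Median H3K4me3 fold was lower on regions that overlapped H3K27me3 than in each class of regions that did not. Regions within 1 kb of H3K27me3 but not on it numbered 105 and had median folds of 9.41 and 8.96 in the 2 libraries. The 379 regions at 1 to 5 kb had 9.32 and 9.43, the 4396 at 20 to 100 kb had 9.20 and 9.14, and the 8209 beyond 100 kb had 8.96 and 8.87. All of these lay above the 5.38 and 5.04 of the regions that overlapped. The classes were not matched for anything else, and the differences between them were not tested. H3K27me3 fold stayed between 4.26 and 4.40 in library 1 and between 3.98 and 4.10 in library 2 over all 6 distance classes.

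**Figure D4:**
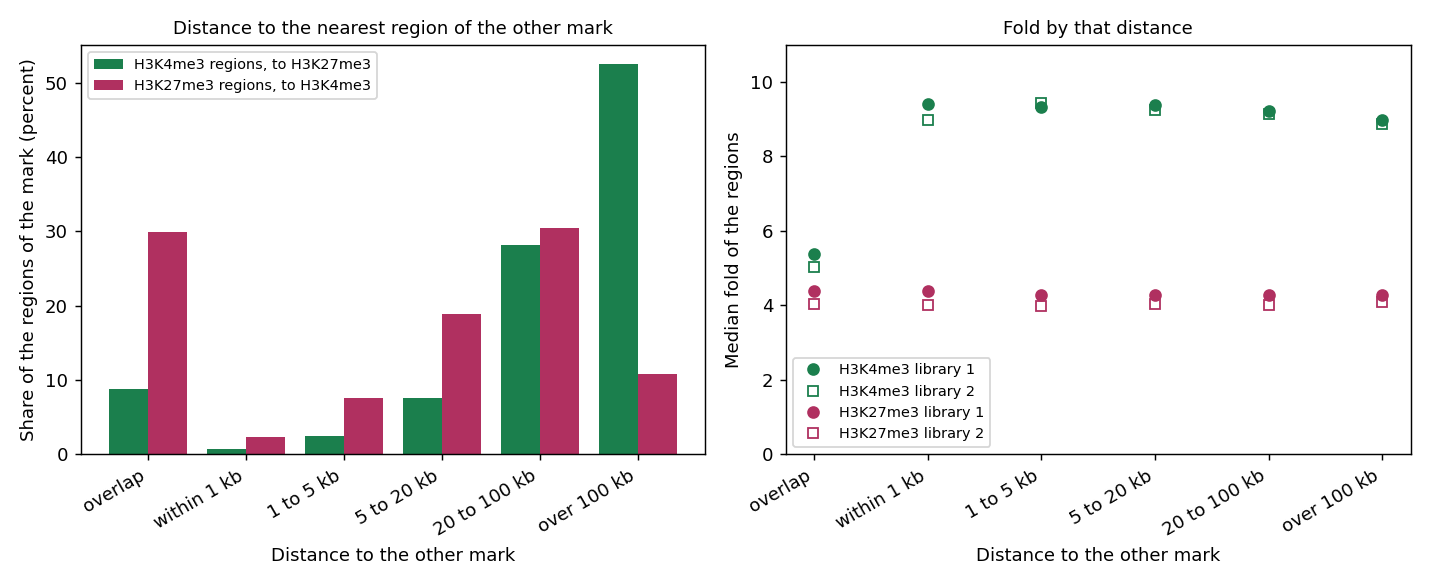
Left, percent of the regions of each mark by distance to the nearest region of the other mark; right, median fold of those regions in each library (filled circles library 1, open squares library 2). H3K4me3 regions that overlap H3K27me3 have median folds of 5.38 and 5.04, and those within 1 kb of it 9.41 and 8.96.

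The share of H3K27me3 regions with H3K4me3 differed little between widths above 1000 bases. It was 17.4% under 500 bases and 24.5% at 500 to 1000 bases. At 1000 to 2000 bases it was 30.2%, at 2000 to 5000 bases 34.1%, at 5000 to 10000 bases 34.3% and at 10000 bases or more 32.5%, beside 29.9% over all. A wide region has more room for an H3K4me3 region, and per 100 kb of H3K27me3 the number of H3K4me3 regions was 20.9 at 1000 to 2000 bases and 3.55 at 10000 bases or more. Of the 203 regions of 10000 bases or more, 66 held an H3K4me3 region.

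The 10 regions with the highest fold are described here for each mark, with their overlap beside the overall share. The 10 H3K4me3 regions with the highest fold in both libraries lay on 10 chromosomes, were 207 to 1939 bases wide and had folds of 20.7 to 28.9 in library 1 and 20.2 to 28.7 in library 2. None overlapped an input peak, and 0 of 10 overlapped H3K27me3, beside 8.75% of all H3K4me3 regions. The first was chr25:1747832-1748846, with folds of 28.9 and 28.7 and a distance of 231 kb to the nearest H3K27me3 region. The second, chr3:2041283-2041489, was only 207 bases wide, with folds of 25.0 and 22.8, and is the narrowest of the 10. The 10 H3K27me3 regions with the highest fold were 536 to 14258 bases wide, with folds of 6.95 to 9.91 in library 1 and 6.67 to 10.3 in library 2, and 4 of them overlapped H3K4me3, beside 29.9% of all H3K27me3 regions. Counts out of 10 are too small to tell either group from the overall shares. In the whole highest quintile of H3K4me3 fold the share with H3K27me3 was 0.448% by library 1 and 0.544% by library 2. The first of the 10 H3K27me3 regions was chr5:71508453-71508988, 536 bases wide with folds of 9.91 and 10.3. The next, chr14:190833-192937, had folds of 7.20 in each library and held 573 bases of H3K4me3.

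Wide H3K4me3 regions were moderate in fold. The 10 widest measured 6234 to 9768 bases, with folds of 5.96 to 9.95 in library 1 and 5.67 to 9.74 in library 2, and 4 of them overlapped H3K27me3. The share was 8.75% over all H3K4me3 regions and 9 of 31 (29.0%) over those of 5000 bases or more. The widest was chr18:23884346-23894113, with folds of 8.77 and 8.28, and it ended 5.85 kb from the nearest H3K27me3 region. Next came chr17:52732775-52741921, which was 9147 bases wide with folds of 7.15 and 6.52 and shared 7777 bases with H3K27me3. The region chr13:5437175-5444326 lay under H3K27me3 over its whole 7152 bases, with H3K4me3 folds of 5.96 and 5.67.

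Of the 10 widest H3K27me3 regions, 6 held 3 to 9 H3K4me3 regions each and the others held none. This split describes these 10 and not wide regions in general, since most H3K27me3 regions with any H3K4me3 held 1. The widest, chr23:35938931-36008779, measured 69849 bases, had folds of 5.01 and 4.78 and held 9 H3K4me3 regions, which covered 28.8% of it. The second, chr19:20140132-20184399, measured 44268 bases and held 7. Several H3K4me3 regions were also held by chr9:1957698-1992691 (6, over 49.96% of its 34994 bases), chr16:21084616-21114213 (5) and chr3:23506282-23543926 (4). These 5 were the only H3K27me3 regions with 4 or more H3K4me3 regions, out of 1313 that had any, of which 1276 had 1. Their H3K4me3 regions had folds of 3.39 to 6.94 and stood 373 to 9567 bases apart. All 5 were among the 10 widest, and they also were 5 of the 6 regions with the most bases under both marks.

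H3K4me3 was not called on 4 of the 10 widest H3K27me3 regions. These were chr17:38284194-38327476, 43283 bases wide with folds of 5.93 and 5.61, chr6:33479487-33516796, chr9:31448696-31482749 and chr24:4934557-4966852. Their nearest H3K4me3 regions lay 20.6, 35.6, 91.0 and 239 kb away. On chr9:31448696-31482749 the H3K27me3 folds were 6.61 and 6.07, and on chr24:4934557-4966852 they were 6.43 and 6.15. These lay above the folds of the 5 regions with 4 or more H3K4me3 regions, which were 4.54 to 5.64 in library 1 and 4.31 to 5.07 in library 2. The remaining region with H3K4me3, chr20:26783380-26811848, held 3 and had folds of 5.56 and 5.28. On chr6:33479487-33516796 the folds were 4.92 and 4.65, within the range of the 5 regions. None of the 10 widest lay on an input peak.

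**Figure D5:**
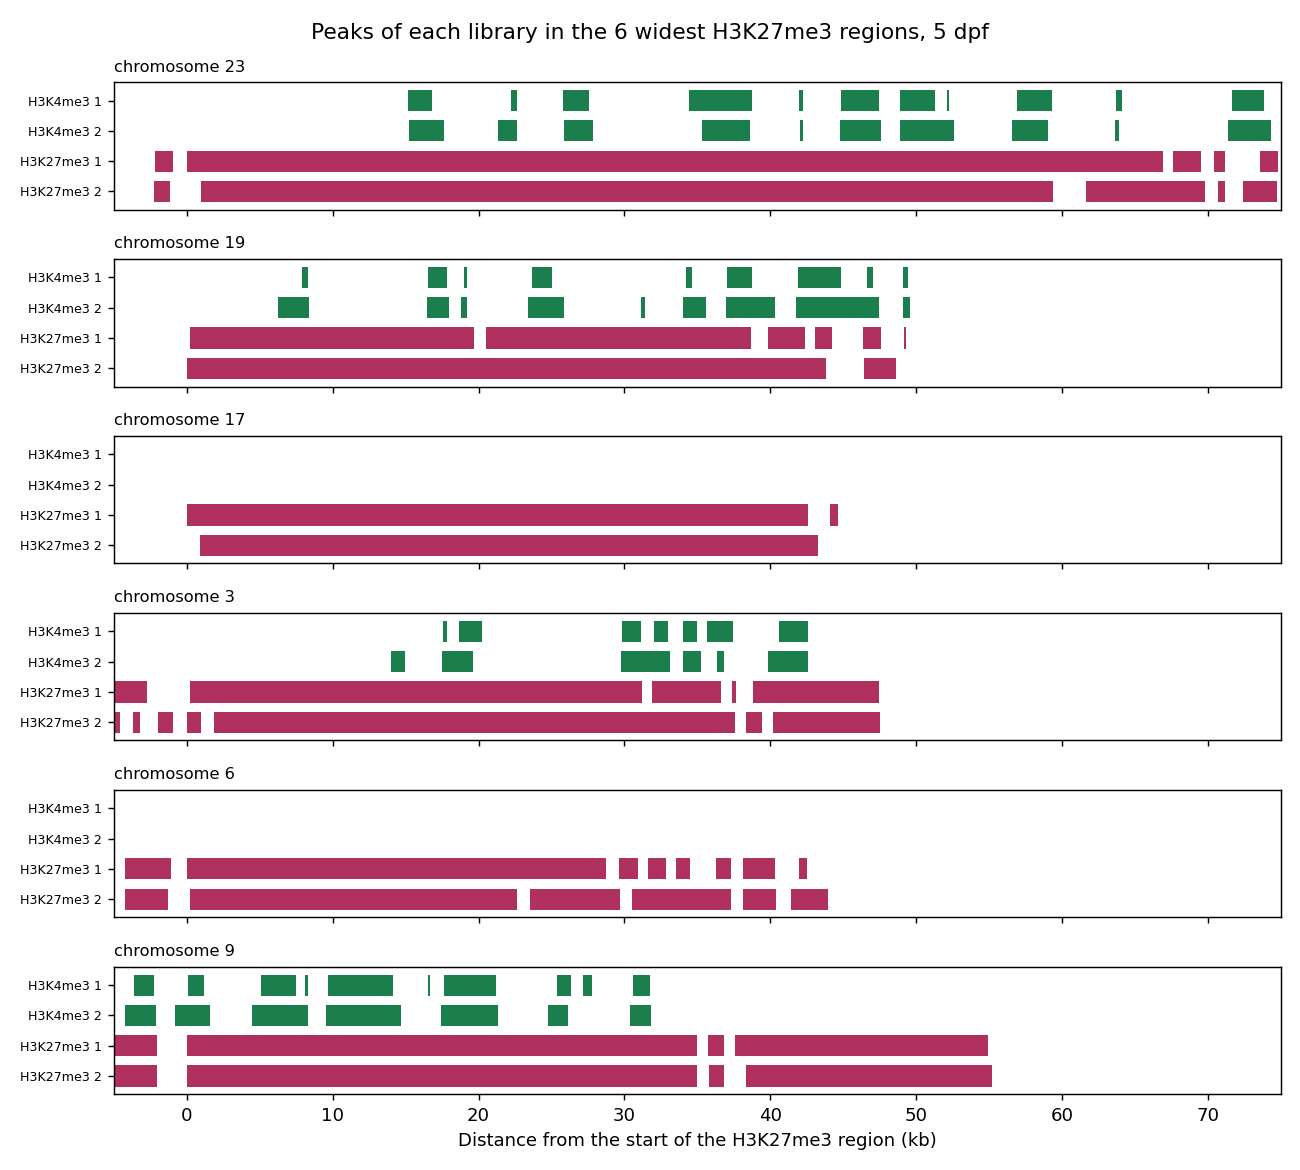
Peaks of each library in the 6 widest H3K27me3 regions at 5 dpf, by distance in kb from the start of the region. Peaks that reach within 5 kb of either end are also drawn, and the axis begins 5 kb before the start. The regions on chromosomes 23, 19, 3 and 9 hold 9, 7, 4 and 6 H3K4me3 regions, and those on chromosomes 17 and 6 hold none.

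Input peaks touched few regions of either mark. They overlapped 8 of the 15630 H3K4me3 regions (0.0512%) and 27 of the 4393 H3K27me3 regions (0.615%). Per library they lay on 0.236% and 0.0719% of H3K4me3 peaks and on 0.952% and 0.656% of H3K27me3 peaks (exact permutation test, p = 0.333, the smallest possible). Input peaks were narrow, with a median width of 582 bases and a widest of 4771 bases, and 10.4% of them lay on unplaced scaffolds, against 1.60% and 1.53% of H3K4me3 peaks and 1.15% and 1.157% of H3K27me3 peaks.

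The regions with both marks at 5 dpf were looked up in the libraries of the later ages, which the choice of regions did not use. Of the 1367 H3K4me3 regions with both marks at 5 dpf, 85.2% lay on regions of both marks at 7 dpf and 95.3% at 9 dpf. Of the 14263 with H3K4me3 alone, 1.30% did so at 7 dpf and 4.00% at 9 dpf. Of the 3080 H3K27me3 regions without H3K4me3 at 5 dpf, 9.51% lay on both marks at 7 dpf and 21.98% at 9 dpf. The later ages had 4326 and 6399 H3K27me3 regions, so the larger shares at 9 dpf go with a longer list. The share of H3K4me3 regions with H3K27me3 was 8.75% at 5 dpf, 10.2% at 7 dpf and 15.9% at 9 dpf, and the median H3K4me3 fold on regions with both marks was 5.20, 5.26 and 5.65, against 9.10, 10.0 and 13.9 on regions with H3K4me3 alone. These differences between ages were not tested here.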

How the data were processed

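Each library has its own deposited peak list. Tools named in the submitters' processing notes are BWA 0.7.15, Picard and MACS2 2.1.1, with the build GRCz10; the control and threshold are not given in the sources used here. The deposited values per peak are a fold enrichment (a ratio to local background), -log10 p and q values, and a score of 10 times -log10 q; q was the basis of 1 alternative. The RNA table holds the authors' signal, reads per gene divided by a size factor, used only for marker genes.

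Regions, overlaps and distances were computed in Python 3.11.15 with scipy 1.17.1 and checked on simulated peaks against bedtools. Peaks were merged where they overlapped by 1 base, and a region's fold is the mean over libraries of its highest peak. Width, fold and overlap with input per library were compared by exact permutation test (2 against 2). Named regions are, per mark, the 10 of highest smaller-of-2 fold and the 10 widest, and the 10 with most bases of both marks. Regions, lists and tests were chosen with earlier results of these data known. The depth of the ChIP libraries is unknown, so no counting interval is given. RNA of genes at the regions was not analysed here, for lack of gene positions on the build.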

Additional observations from a re-analysis of the deposited data

How the results depend on the processing

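The exact permutation test of 2 libraries against 2 cannot give a p below 0.333, so these values speak only of direction and size. With peaks of -log10 q of 10 or more, 11856 H3K4me3 and 350 H3K27me3 regions were left. Overlap was then 0.228% of H3K4me3 and 7.14% of H3K27me3 regions, the log2 difference in region width was -2.95 and in region fold 0.75, and H3K4me3 fold on both marks against H3K4me3 alone was log2 -0.40. Per library, the difference there was log2 -2.80 in width, -7.12 percentage points in overlap and 1496 kb in distance. With the bases shared by both libraries, 26.8% of H3K27me3 regions overlapped and the width difference was log2 -0.27. That share was 31.3% after joining peaks up to 1000 bases apart and 28.6% when 50% of the shorter region had to be covered. Leaving out 1 library, so that the peaks of the other stand for its mark, gave 8.98% to 9.81% of H3K4me3 and 24.7% to 34.8% of H3K27me3 regions, a fold difference of log2 1.0 to 1.164, a difference between both marks and H3K4me3 alone of -0.87 to -0.77, and a width difference of -0.99 to 0.12. It was 0.12 without H3K27me3 library 2, where unshared short peaks enter that mark by construction. Leaving out regions on input peaks, adding scaffolds, or leaving out chromosome 4 turned no sign. The median peak widths of the libraries, however, no longer overlapped between the marks without input peaks or with scaffolds. The same held with peaks up to 1000 bases apart joined and with -log10 q of 10 or more.

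Replicate numbers of the marks were not shown to pair pools: library 1 over library 2 fold ratios of the marks correlated at 0.06 over 1375 pairs. With the replicate block the differences were log2 -0.18 in width and 1.07 in fold, -15.8 percentage points in overlap and 93.8 kb in distance. A block cannot move a difference of means in this balanced design. The exact sign-flip test gave p = 0.5 for width and for fold, the smallest that 2 pairs allow. For overlap and distance no test is given, since the unequal numbers of regions bear on their direction. The effect of gene start distances and RNA levels was not run.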

Other observations

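Peaks found in a single library of H3K4me3 lay on H3K27me3 regions more often than those found in both. In library 1, 17.9% of the unshared H3K4me3 peaks overlapped H3K27me3, against 8.66% of the shared ones, and in library 2 it was 22.2% against 8.74%. For H3K27me3 the order was the other way, with 13.2% and 10.8% of unshared peaks on H3K4me3, against 28.2% and 29.0% of shared ones. Unshared peaks were shorter in both marks, so they had less room for an overlap. Median widths were 429 and 477 bases against 1247 and 1307 for shared H3K27me3 peaks. For H3K4me3 they were 192.5 and 322 bases against 831 and 970. Unshared H3K4me3 peaks also had low folds, with medians of 4.38 and 3.77 against 8.68 and 8.66 for shared ones. These differences were not tested.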
